A study of Mus musculus with 4 samples.

Results

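Eicosanoids are short-lived lipid signals made from arachidonic acid, and 10 of the genes that make, break down or sense them are described here in mouse macrophages. The 10 were chosen by name: Pla2g4a, which releases arachidonic acid, Ptgs1 and Tbxas1 of the prostanoid branch, Alox5, Alox5ap, Lta4h and Ltc4s of the leukotriene branch, Hpgd, which inactivates prostaglandins, and the prostaglandin E2 receptors Ptger2 and Ptger4. All 10 were found among the 55536 annotated genes of the deposited tables. The cells were primary bone marrow-derived macrophages of C57BL/6J mice, grown out of marrow, exposed to lipid A at 100 ng/ml for 15 minutes, and the RNA was ribosome-depleted total RNA of the cytosolic fraction. Lipid A is the part of bacterial lipopolysaccharide that Toll-like receptor 4 binds. The 4 libraries form 1 group of 4 biological replicates, all with lipid A, numbered as in the labels. The labels give age and sex as not collected, name a single donor record for all 4 libraries and leave unsaid whether animals or cultures were separate. Any p-value below therefore measures only how far these samples spread, which may be technical. No unstimulated library was analysed here, so every value is a level in stimulated cells and not a response to lipid A.

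Cytosolic phospholipase A2 cuts arachidonic acid from membrane phospholipids. Cyclooxygenases turn it into prostaglandin H2, which thromboxane synthase and the prostaglandin synthases convert further, while 5-lipoxygenase, helped by its activating protein at the nuclear envelope, starts the leukotrienes. Prostaglandin E2 acts on macrophages through receptors that raise cyclic AMP, among them EP2 and EP4, the products of Ptger2 and Ptger4.

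Replicates 1 to 4 held 30088678, 47961117, 40282297 and 45771235 expected counts on annotated genes, so 0 counts in replicate 1, the shallowest, allowed up to 0.0997 CPM (counts scaled to a fixed library total) by counting error alone. The signal recognition particle RNA genes Rn7s1 and Rn7s2 took 57.1% to 63.3% of all TPM (a length-corrected level), which lowers the TPM of every other gene. Replicate 1 stood apart. Against the other 3 libraries it had 22% of 14041 tested genes at an adjusted p under 0.05 (edgeR's quasi-likelihood test, Benjamini-Hochberg), 14.5% higher and 7.58% lower, while replicates 2, 3 and 4 had 0% each (277, 135 and 104 genes at an unadjusted p under 0.05). DESeq2 called 8, 3 and 17 genes in these 3. The common coefficient of variation between libraries was 0.327 with replicate 1 and 0.226 without it. Replicate 1 was in the reference of the tests of replicates 2, 3 and 4, which widened the spread used there. The replication gene Mcm5 had 3212 counts there against 531 to 585 in the other libraries, and the chemokine gene Ccl7 7484 against 1094 to 1344. Both were picked as markers of replicate 1 from earlier results of these data, so they are no separate support for its difference. All 12 macrophage markers were detected, meaning a mean of at least 1 TPM. Adgre1, which encodes the F4/80 antigen, averaged 178 ± 29.8 TPM (SD, n = 4), and the markers summed to between 6217 and 9913 TPM per library. The dendritic cell, T cell, B cell and stromal lists had 1 of 8, 1 of 8, 2 of 7 and 0 of 7 markers detected, with sums of at most 3.61, 23.9, 12.5 and 1.66 TPM. In replicate 1, 3 of the 12 macrophage markers were higher (Itgam, C1qa and Mrc1) and 1 was lower (Mertk), as were the T cell marker Cd4 and the B cell marker Ighm. The megakaryocyte gene Pf4 was higher there as well, with 15489 counts against 4748 to 5135, a log2 fold of 2.11 ± 0.15 (SE). The other megakaryocyte markers were low: Itga2b had at most 52 counts and Gp9 at most 5 in a library. Ppbp had 71, 50, 56 and 28 counts in replicates 1 to 4, with a log2 fold of 1.08 ± 0.59 (SE) in replicate 1. The folds of Itga2b, Gp1ba and Treml1 there were negative, at -1.48 ± 1.16, -0.66 ± 0.82 and -0.56 ± 0.95 (SE). The nuclear-retained RNAs Malat1 and Neat1, also picked from earlier results of these data, split the libraries differently. Malat1 stood at 306 and 242 TPM in replicates 1 and 2 and at 984 and 941 TPM in replicates 3 and 4, and Neat1 at 35.1, 25.0, 115 and 79.4 TPM in replicates 1 to 4.

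Alox5ap, Tbxas1 and Lta4h held the highest levels of the 10, while Alox5, of the same branch as Alox5ap and Lta4h, was among the lowest with Hpgd. Of the 10 genes, 7 were detected, against 18.6% of all annotated genes, and Ptger2, Hpgd and Alox5 were not. By mean TPM the order was Alox5ap, Tbxas1, Lta4h, Ptgs1, Ltc4s, Pla2g4a, Ptger4, Ptger2, Hpgd and Alox5. The first 4 kept this order in every library with ranges that did not overlap, and so did Ptger4, Ptger2 and Hpgd. Ptgs1 lay above Ltc4s in 4 of 4 libraries but with overlapping ranges, and Ltc4s above Pla2g4a in 3 of 4. Pla2g4a lay above Ptger4 in 1 library, replicate 1, and Hpgd above Alox5 in 2, so these neighbours did not differ beyond their spread. In the second quantification the means were lower, with 58.1 TPM for Alox5ap, 13.2 for Tbxas1, 5.74 for Lta4h and 2.19 for Ptgs1, in the same order. The median of the 10 was 2.06 ± 0.37 on the log2(TPM + 1) scale (SD, n = 4) and that of all detected genes 3.09 ± 0.28.

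**Figure D1:**
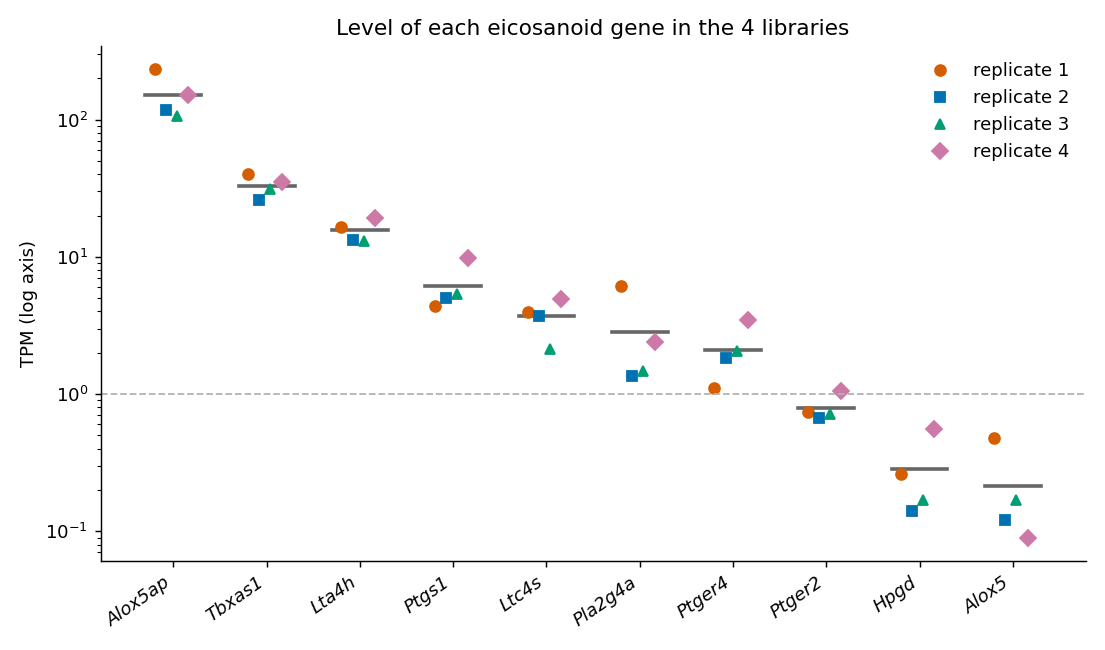
Deposited TPM of each of the 10 genes (log axis) in the 4 libraries, one marker per replicate, genes sorted by mean. Grey lines are the means over the 4 libraries and the dashed line is the 1 TPM detection level. Alox5ap lies between 107 and 233 TPM, above every other gene, Alox5 and Hpgd lie below 1 TPM in all libraries, and Pla2g4a and Alox5 are highest in replicate 1.

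Nearly all of the 10 varied between libraries by more than counting error, as did most tested genes. A Poisson fit was exceeded for 9 of 10 (Benjamini-Hochberg adjusted p under 0.05), against 82.8% of tested genes, and for 6 of 10 without replicate 1, against 60.1% of 14306 genes tested in that setting. The exception over all 4 libraries was Ptger2 (adjusted p = 0.31). The median SD of log2 CPM over the 10 was 0.34, against 0.25 over all tested genes, and without replicate 1 it was 0.18 against 0.13.

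In replicate 1, 4 of the 10 differed from the other 3 libraries: Pla2g4a, Alox5 and Alox5ap were higher and Ptger4 was lower. This is 3 of 10 higher and 1 of 10 lower, against 14.5% and 7.58% of tested genes. The median log2 fold of the 10 in replicate 1 was -0.12, and that of all tested genes was -0.00454. In replicates 2, 3 and 4 edgeR called 0 of the 10, with 0 at an unadjusted p under 0.05, and DESeq2 also called 0. Replicate 1 was in the reference of those tests and widened their spread. The SE of Pla2g4a was 0.77, 0.82 and 0.82 in replicates 2, 3 and 4, against 0.12 in replicate 1. The lack of calls there therefore does not show that replicates 2, 3 and 4 were alike. In bulk RNA, fewer cells of a type and less RNA per cell cannot be told apart. Pf4, Mcm5 and Ccl7 were higher in replicate 1, like Pla2g4a, Alox5 and Alox5ap and unlike Ptger4. The part of Pf4, Mcm5 and Ccl7 in the result was not tested.

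**Figure D2:**
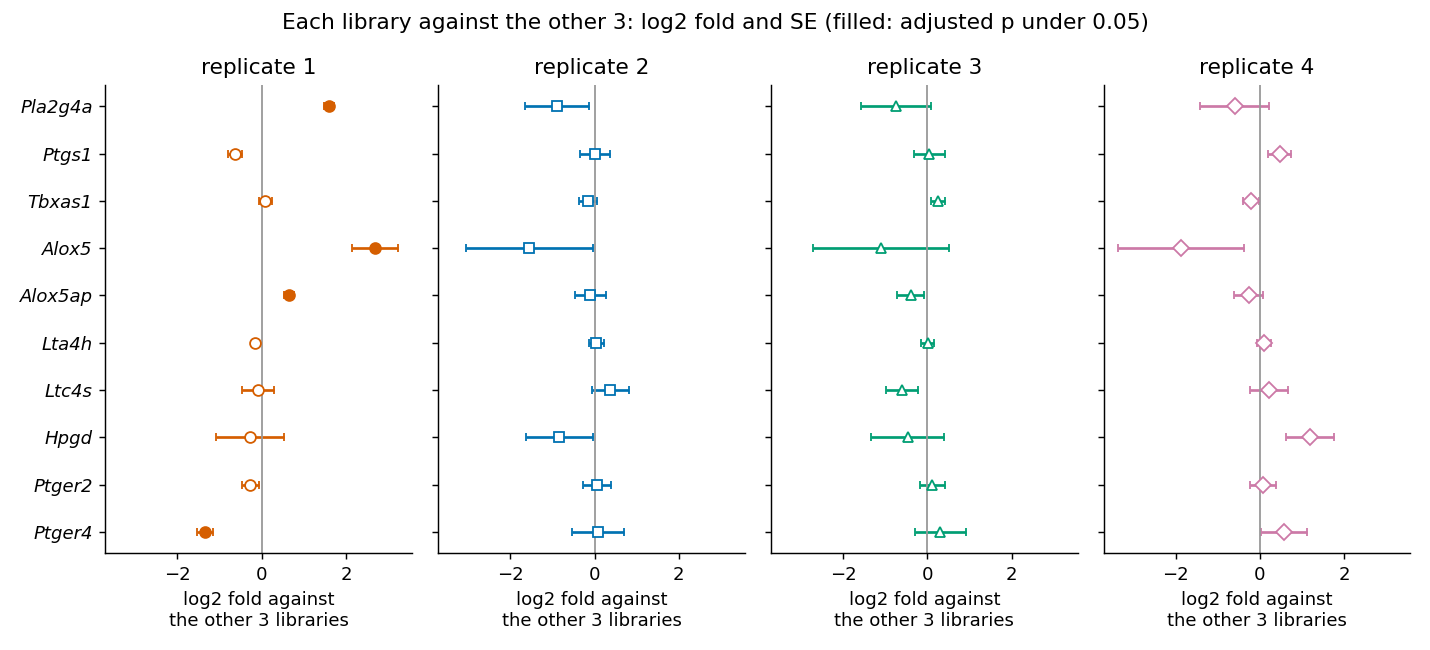
Log2 fold of each gene in one library against the other 3 (x axis, bars are the SE), one panel per replicate; filled points have an adjusted p under 0.05. Filled points occur in replicate 1 alone, with Alox5, Pla2g4a and Alox5ap right of 0 and Ptger4 left of it.

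Pla2g4a, which encodes cytosolic phospholipase A2 alpha, lies on the minus strand at chr1:149829618-149961290 (mm10). It had 769, 337, 299 and 416 counts in replicates 1 to 4, or 24.1, 7.30, 7.97 and 8.65 CPM after TMM scaling. Replicate 1 was above the others, which lay close together. The log2 fold was 1.59 ± 0.12 (SE; edgeR adjusted p = 0.00354), and the SD of log2 CPM fell from 0.80 to 0.12 without that library. Its level was 6.10, 1.36, 1.47 and 2.38 TPM, a mean of 2.83 ± 2.23 TPM (SD, n = 4) and 1.74 ± 0.56 without replicate 1. Transcript Pla2g4a-201 carried 97.5% to 100% of it. Among 10419 genes averaging 100 counts or more, those nearest to Pla2g4a in centred log2 CPM over the 4 libraries were Gmnn, Hist1h2bn and Ercc6l, at root mean square distances of 0.0324, 0.0423 and 0.0578. Gmnn, an inhibitor of replication licensing, had 820, 370, 308 and 442 counts. Counts of Hist1h2bn, a histone gene, share reads with near-identical histone copies. The likeness is a description over 4 libraries and rests mainly on replicate 1.

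The prostanoid branch was represented by Ptgs1 and Tbxas1. Ptgs1 (chr2:36230426-36252272, plus strand), the constitutive cyclooxygenase, had 557, 1140, 948 and 1491 counts, or 17.4, 24.7, 25.3 and 31.0 scaled CPM. Replicate 1 was lowest, with a log2 fold of -0.63 ± 0.17 (SE; edgeR adjusted p = 0.0536), just outside the threshold. It passed in 6 of the alternatives, for example with DESeq2 (-0.65, adjusted p = 0.0125). Its level was 6.15 ± 2.49 TPM. Tbxas1, thromboxane synthase (chr6:38875404-39084585, plus strand), was the second most abundant of the 10. It had 3323, 4230, 4255 and 4273 counts. Its levels were 40.1, 26.0, 31.2 and 34.9 TPM, a mean of 33.0 ± 5.94 TPM (SD, n = 4), and scaled CPM ran from 88.9 to 113. The library values were close and none differed from the rest (adjusted p = 0.72 for replicate 1). Hipk2 lies over it on the other strand but shares no exon bases with it. Tbxas1 exceeded Ptgs1 by 9.11, 5.22, 5.81 and 3.55 times in TPM in replicates 1 to 4.

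Ptgs2, the inducible cyclooxygenase, is not among the 10 but catalyses the same step as Ptgs1. It had 52, 213, 278 and 930 counts, or 0.26, 0.54, 0.86 and 3.34 TPM. Ptgs1 exceeded it by 16.9, 9.22, 6.24 and 2.94 times in TPM, so the constitutive gene was higher in every library but by very different margins. For Ptgs2 the log2 fold in replicate 1 was -2.68 ± 0.99 (SE; edgeR adjusted p = 0.12); it passed in 3 alternatives, with an adjusted p of 0.029 without the count filter, 0.0198 without replicate 2 and 0.0267 without replicate 4.

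The leukotriene branch spanned the widest range. Alox5ap, the 5-lipoxygenase activating protein (chr5:149264767-149288153, plus strand), had 7097, 7087, 4907 and 6741 counts and levels of 233, 117, 107 and 152 TPM. Its mean of 152 ± 57.1 TPM (SD, n = 4) ranked 280 among all annotated genes. Scaled CPM was 222, 154, 131 and 140, and the log2 fold in replicate 1 was 0.65 ± 0.11 (SE; edgeR adjusted p = 0.0188). Without replicate 1 the mean was 125 ± 23.5 TPM. Alox5 (chr6:116410077-116461178, minus strand), the lipoxygenase that Alox5ap serves, had 61, 13, 14 and 11 counts, or 1.91, 0.282, 0.373 and 0.229 scaled CPM. Replicate 1 was above the other 3, whose counts were few. The log2 fold was 2.69 ± 0.55 (SE; edgeR adjusted p = 0.0277), and its call was lost without replicate 3 or replicate 4 (2.89, adjusted p = 0.0621 and 2.46, adjusted p = 0.0628). Its mean was 0.215 ± 0.18 TPM (SD, n = 4) and 0.127 ± 0.04 without replicate 1. In TPM, Alox5ap exceeded Alox5 by 485, 977, 628 and 1686 times.

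Lta4h makes the neutrophil attractant leukotriene B4 and Ltc4s makes the cysteinyl leukotriene C4. Lta4h (chr10:93453411-93484875, plus strand) was the steadiest of the 10 between the highest and lowest library, with 39.1, 43.3, 42.5 and 44.5 scaled CPM, a ratio of 1.14. Its level was 15.6 ± 2.93 TPM (SD, n = 4). Ltc4s (chr11:50236461-50238616, minus strand) had 80, 146, 71 and 140 counts and 3.96, 3.71, 2.13 and 4.92 TPM, a mean of 3.68 ± 1.16. No library differed from the rest for either gene (adjusted p = 0.28 and 0.89 in replicate 1). Lta4h exceeded Ltc4s by 4.19, 3.61, 6.17 and 3.93 times in TPM, so the hydrolase was above the synthase in 4 of 4 libraries.

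Mast cells and eosinophils are known sources of leukotrienes, and platelets of thromboxane. Mast cell and basophil markers had 0 of 10 detected, with summed levels of 0.33 to 0.78 TPM per library and 0 counts of Mcpt4, Tpsb2, Tpsab1 and Cma1. The eosinophil list had 1 of 5 detected, Ccr3, and summed to 0.98 to 4.85 TPM. Its other markers had few counts. Siglecf had 17, 17, 10 and 19 counts in replicates 1 to 4, or 0.532, 0.368, 0.266 and 0.395 scaled CPM. Its scaled level was thus highest in replicate 1, as for Ccr3, but from few counts. Epx, Prg2 and Il5ra had 0 counts in replicate 1. The megakaryocyte list had 1 of 9, Pf4, and the neutrophil list 3 of 10, with sums of 158 to 940 and 20.9 to 40.9 TPM. Pf4 alone held 157 to 938 TPM, nearly all of the megakaryocyte sum. Ccr3 was higher in replicate 1 (log2 fold 2.03 ± 0.29, SE; edgeR adjusted p = 0.011), as were Alox5ap and Alox5, and its part in the result was not tested.

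Hpgd (chr8:56294585-56321043, plus strand), the dehydrogenase that starts prostaglandin breakdown, was near the lower limit of these data. It had 18, 19, 19 and 54 counts and 0.26, 0.14, 0.17 and 0.56 TPM. Replicate 4 held the most, and its difference did not pass the test (edgeR adjusted p of 0.99 or more in replicates 2, 3 and 4).

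The prostaglandin E2 receptors Ptger2 and Ptger4 had different spreads between libraries; the difference itself was not tested. Ptger2 (chr14:44988195-45003820, plus strand) had 122, 209, 176 and 221 counts, or 3.82, 4.53, 4.69 and 4.60 scaled CPM, with no variation beyond counting shown. Ptger4 (chr15:5206661-5244187, minus strand) had 163, 527, 483 and 698 counts, or 5.10, 11.4, 12.9 and 14.5 scaled CPM. Replicate 1 was below the others, which did not overlap it, with a log2 fold of -1.34 ± 0.18 (SE; edgeR adjusted p = 0.0103). Its mean was 2.11 ± 0.97 TPM (SD, n = 4) and 2.45 ± 0.87 without replicate 1. In TPM, Ptger4 exceeded Ptger2 in 4 of 4 libraries, by 2.75, 2.86 and 3.25 times in replicates 2, 3 and 4 and by less in replicate 1, with 1.11 against 0.74 TPM. Ttc33, a protein-coding gene on the other strand at 9.22 TPM, overlaps exons of a minor Ptger4 transcript but none of its leading one, so without a record of stranded counting their reads cannot be told apart there.

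The 250 bases before the transcription start (RefSeq, GRCm38.p6) are shown for 3 of the 4 genes that differed in replicate 1, since they moved there in different directions. The RefSeq table had promoter entries for 9 of the 10 genes. The windows lie at chr1:149961241-149961540 (Pla2g4a), chr6:116461129-116461428 (Alox5) and chr15:5244138-5244437 (Ptger4), all on the minus strand, each with 50 further bases after the start that are not printed. Capitals mark matches to the searched motifs on either strand.
Pla2g4a: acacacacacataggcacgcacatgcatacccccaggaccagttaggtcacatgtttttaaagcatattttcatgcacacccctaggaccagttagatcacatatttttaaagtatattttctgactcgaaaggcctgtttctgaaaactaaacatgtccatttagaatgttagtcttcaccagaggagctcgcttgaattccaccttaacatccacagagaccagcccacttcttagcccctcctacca
Alox5: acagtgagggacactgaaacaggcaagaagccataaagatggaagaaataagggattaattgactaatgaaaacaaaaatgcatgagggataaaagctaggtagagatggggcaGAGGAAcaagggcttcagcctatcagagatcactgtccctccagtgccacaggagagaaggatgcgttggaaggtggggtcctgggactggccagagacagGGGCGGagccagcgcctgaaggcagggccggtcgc
Ptger4: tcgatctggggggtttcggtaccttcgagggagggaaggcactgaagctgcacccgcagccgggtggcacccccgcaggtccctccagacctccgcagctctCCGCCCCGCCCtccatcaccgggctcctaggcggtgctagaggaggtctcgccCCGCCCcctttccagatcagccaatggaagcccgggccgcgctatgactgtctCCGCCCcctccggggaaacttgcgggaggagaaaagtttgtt
The letters GAGGAA, an ETS factor core, were found in 28.3% of 32851 windows of 300 bases around starts. The AP-1 motif TGANTCA was found in 7.81% of them, the NF-kappaB consensus in 4.79%, the cyclic AMP response element TGACGTCA in 1.79%, the GC box GGGCGG in 35.7% and the TATA box TATAAA in 13.6%. The 9 genes had 10 such entries, and 6 held GAGGAA, 3 GGGCGG, 3 TATAAA, 1 TGANTCA and none the other motifs. Pla2g4a had none in this window, Alox5 had GAGGAA and GGGCGG, and Ptger4 had 4 matches to GGGCGG, the first 2 sharing 1 base. The 3 windows had GC contents of 45.3%, 55.7% and 67.0%. A match is a description of letters and not a binding site.

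Isoform shares were given by the authors as IsoPct, the percent of a gene's TPM in each transcript. In 9 of the 10 genes the same transcript led in both of the authors' quantifications, and the exception was Alox5. Hpgd has 1 annotated transcript. Ptgs1-201 held 100%, 90.9%, 83.3% and 84.2% in replicates 1 to 4, Tbxas1-201 84.0% to 93.3%, Lta4h-201 82.3% to 88.7% and Ltc4s-202 73.0% to 87.8%. Ptger4-201 held 62.7% to 77.9% and Ptger4-202 most of the rest, 21.5% to 37.4%. Alox5ap was split between 3 transcripts. Alox5ap-201 held 48.0% ± 3.72 and Alox5ap-204 36.9% ± 1.92 (SD, n = 4), and the second, which is short, took 15.9% to 18.1% of the gene's counts. Alox5ap-204 has a first exon of its own at chr5:149287415-149287445, between exons 4 and 5 of Alox5ap-201.

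Ptger2 carried a retained intron whose share differed between libraries. Its 2 transcripts are shown across the end of exon 1, because the bases after that point tell them apart. The lower case run is the shared end of the exon (chr14, plus strand, GENCODE M21). The capitals are exon 2 (45001750-45003820) in Ptger2-201 and the retained intron in Ptger2-202, which is 1 exon from 44988666 to 44991316.
Ptger2-201: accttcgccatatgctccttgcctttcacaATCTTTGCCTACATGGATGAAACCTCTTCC
Ptger2-202: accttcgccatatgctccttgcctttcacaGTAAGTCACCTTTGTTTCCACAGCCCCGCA
Ptger2-202 took 0%, 13.6%, 28.0% and 30.4% of the gene in replicates 1 to 4, from 0, 20.8, 37.7 and 51.8 counts. In the second quantification of the same libraries it took 7.74%, 17.0%, 26.4% and 31.8%, so replicates 3 and 4 were highest in both. Ptger2-201, the spliced form, had 122, 188, 138 and 169 counts. Retained-intron transcripts of Tbxas1 took 3.22%, 2.2%, 8.36% and 10.5% of the gene, those of Ptgs1 0%, 0.96%, 6.1% and 8.43%, and those of Lta4h 1.72%, 1.66%, 6.18% and 6.51%. All 3 genes were higher in replicates 3 and 4 than in replicates 1 and 2. The share of Ltc4s was 10.2%, 4.35%, 4.65% and 2.91%, highest in replicate 1 and from few counts. For Alox5, retained-intron transcripts took 7.25%, 68.8%, 44.9% and 50.5%, but on 11 to 61 counts for the whole gene. Without replicate 1 the leading Alox5 transcript by mean IsoPct was the retained-intron Alox5-206, from 1.96 to 3.93 counts per library. The longer coding Alox5-201 had more counts, with 8.31, 4.13 and 7.12 in replicates 2, 3 and 4. In replicate 4 Alox5-201 also led in IsoPct (44.0% against 42.0%). Over 6066 genes with such a transcript, a mean of 1 TPM and 20 counts in each library, the median share was 1.52%, 1.2%, 4.16% and 4.9%. Malat1 and Neat1 were highest in replicates 3 and 4 as well; their part in the result was not tested.

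**Figure D3:**
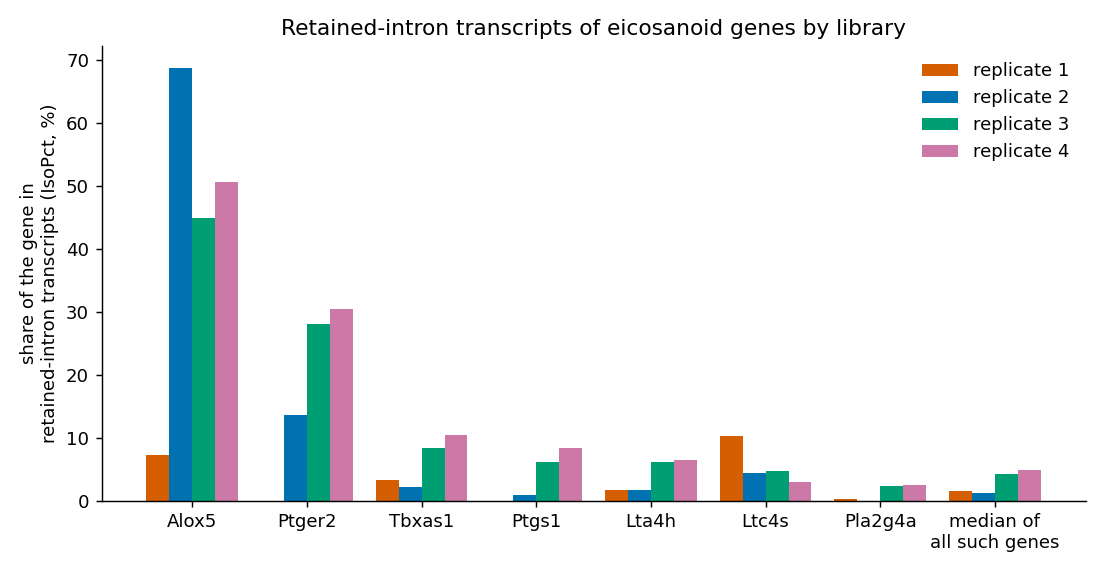
Percent of each gene's TPM in transcripts annotated as retained introns (IsoPct, y axis), bars coloured by replicate, with the median of 6066 genes on the right. Ptger2 is at 0% in replicate 1 and at 30.4% in replicate 4, and the median is highest in replicates 3 and 4.

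Around these 10, 60 further genes of the pathway were listed by role, and 29 of the 60 were detected. Among the 35 that were tested, 5 were higher and 4 lower in replicate 1, against 14.5% and 7.58% of tested genes, with a median log2 fold of -0.06. Phospholipases and release genes had 9 of 17 detected, led by the lysosomal phospholipase Pla2g15 at 55.6 ± 9.57 TPM (SD, n = 4). Acsl4, which couples arachidonic acid to coenzyme A, was higher in replicate 1 (log2 fold 0.46 ± 0.10, SE; edgeR adjusted p = 0.0326), a call lost without replicate 3 (adjusted p = 0.066) or replicate 4 (0.0984). The monoacylglycerol lipase gene Mgll was lower (log2 fold -2.19 ± 0.55, SE; edgeR adjusted p = 0.0478).

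Prostanoid synthesis had 5 of 8 detected. Hpgds, a prostaglandin D synthase, averaged 62.4 ± 15.2 TPM (SD, n = 4) and exceeded Tbxas1 by 1.44, 1.97, 1.79 and 2.44 times in TPM. The inducible prostaglandin E synthase Ptges had 20, 37, 62 and 30 counts, while Ptges3, a cytosolic synthase and chaperone partner, averaged 38.1 ± 18.1 TPM and was higher in replicate 1 (log2 fold 0.88 ± 0.08, SE; edgeR adjusted p = 0.00465). The other lipoxygenases were all below 1 TPM, 0 of 6 detected, and summed to 0.03 to 0.12 TPM per library. Alox15 had 1 count in all 4 libraries together.

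Leukotriene and glutathione handling had 6 of 8 detected, and 2 of the 6 tested were lower in replicate 1, against 7.58% of all tested genes. The microsomal glutathione transferase Mgst1 averaged 67.0 ± 18.0 TPM (SD, n = 4) and had a log2 fold of -1.01 ± 0.12 (SE; edgeR adjusted p = 0.00704). Cyp4f18, which inactivates leukotriene B4, had a log2 fold of -1.87 ± 0.27 (SE; edgeR adjusted p = 0.0116). Its exons overlap Zfp961 on the other strand, with mean counts of 359 for Zfp961 and 353 for Cyp4f18, so reads of the pair may be shared and the value is uncertain. Transport and breakdown had 4 of 7 detected. The export pumps Abcc1 and Abcc4 were higher, by 0.65 ± 0.08 and 0.53 ± 0.12 on the log2 scale (SE; edgeR adjusted p = 0.00779 and 0.0349), and the call of Abcc4 was lost without replicate 3 (0.0675) or replicate 4 (0.0633).

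Receptors had 5 of 14 detected. Pparg, a nuclear receptor for lipid ligands, averaged 16.9 ± 1.91 TPM and Cysltr1, a cysteinyl leukotriene receptor, 4.11 ± 1.89 TPM (SD, n = 4). Cysltr2, another such receptor, averaged 1.55 ± 0.61 TPM (SD, n = 4), with a log2 fold of -0.44 ± 0.37 (SE) in replicate 1. Cysltr1 was higher in replicate 1 (log2 fold 0.70 ± 0.15, SE; edgeR adjusted p = 0.0297). Ptger1, the EP1 receptor, was lower (-1.19 ± 0.26, adjusted p = 0.032), but this call is uncertain, since in the second quantification the log2 fold was -0.63 (edgeR adjusted p = 0.20). The leukotriene B4 receptor gene Ltb4r1 had 7, 8, 7 and 11 counts and the thromboxane receptor gene Tbxa2r 1, 1, 1 and 0. Cysltr1 stood at 1.57, 0.647, 1.24 and 1.06 times the TPM of Ltc4s in replicates 1 to 4.

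**Figure D4:**
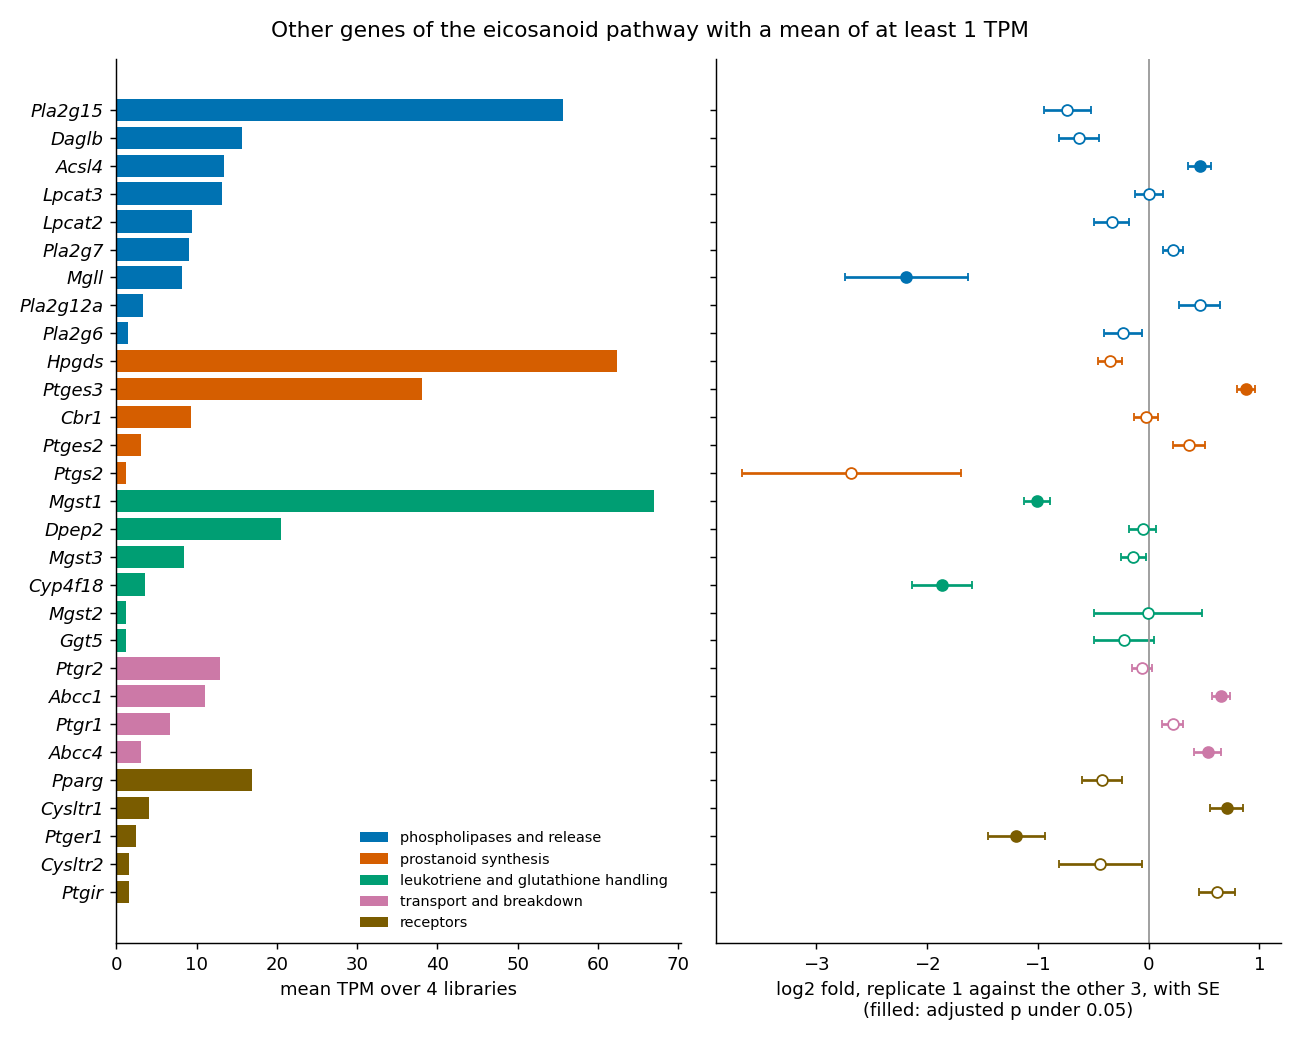
Mean TPM over the 4 libraries (left, bars from 0, coloured by role) and log2 fold of replicate 1 against the other 3 with its SE (right, filled where the adjusted p is under 0.05) for the 29 other pathway genes that averaged 1 TPM or more. Mgst1, Hpgds and Pla2g15 are highest, and Mgll, Cyp4f18, Ptger1 and Mgst1 are the filled points below 0.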

How the data were processed

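Total RNA-seq of the cytosolic fraction was analysed in 4 libraries of 1 group. For each library the deposited tables give genes, transcripts and, from a separate quantification, targets. Per the file headers, genes carry expected counts and targets estimated counts, and TPM and the percent of each isoform were deposited by the authors as well. The accompanying text names mm10 and GENCODE M21; no aligner, quantifier, version or strand setting is given in the sources used here. Features that name no gene held 0.0267% to 0.407% of expected counts and were left out.

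Expected counts were rounded. Genes averaging 10 counts or more were scaled by TMM. The quasi-likelihood test of edgeR 4.0.16, under R 4.3.3, set 1 replicate against the remaining 3, with Benjamini-Hochberg adjustment over all 14041 tested genes and calls at an adjusted p under 0.05. The lone library adds no residual degree of freedom and is assumed to vary like the others. Each SE is the fold divided by the root of its F statistic. Comparisons of the 4 replicates share libraries. DESeq2 1.42.0 was an alternative. Variation beyond counting was judged by Poisson deviance. Scripts used Python 3.11.15, numpy 2.4.6, pandas 2.3.3 and matplotlib 3.10.9 and were tested on simulated data. Floors are 3 counts of a library and, like intervals, reflect counting alone: no molecular identifiers are recorded, and without them reads need not be independent.

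The 10 genes, the 60 further pathway genes and the marker lists were chosen with earlier results of these data known. The text names all 10 genes whatever their value, the pathway genes that had a call and only some of the others that averaged 1 TPM. It also names the replicate markers Mcm5, Ccl7, Malat1 and Neat1, and the 3 genes nearest in pattern to Pla2g4a. Pla2g4a had the largest SD among members averaging 100 counts or more. Ptgs2, Ptges, Alox15, Ltb4r1 and Tbxa2r were added to show low members of the pathway. Alternatives were another scaling, test, count filter, pseudocount, detection threshold, the target tables, TPM without Rn7s1 and Rn7s2, and leaving out each replicate. One item is not reported here.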

Additional observations from a re-analysis of the deposited data

Results flagged for a closer look

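In 5 of 58 sets of 4 library values, 1 library lay far from the other 3 by Dixon's criterion, which chance alone gives in about 1 in 20 sets. Pla2g4a had 24.07 scaled CPM in replicate 1 and 7.30 to 8.65 in the others. Alox5 had 1.909 in replicate 1 and 0.229 to 0.373 in the others. Ptges3 had 169.9 in replicate 1 and 90.1 to 96.2 in the others, and Abcc1 had 154.3 in replicate 1 and 96.5 to 102 in the others. Dpep2, a dipeptidase of leukotriene handling, had 53.31 in replicate 4 and 46.0 to 46.7 in the others.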

How the results depend on the processing

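The median of log2(TPM + 1) over the 10 genes was 2.06, and was 1.11 in the target tables, 3.14 after rescaling without Rn7s1 and Rn7s2, 1.69 with a pseudocount of 0.1 and 2.88 over genes of at least 1 TPM; leaving out replicates gave 1.95 to 2.20. At a threshold of 5 TPM, 4 of the 10 were detected, in the target tables at 1 TPM 6, and after rescaling 8. No direction reversed among the called folds of the 10 in 31 alternatives, and 29 of these kept their call; the other 2 were Alox5 without replicate 3 or 4. Of the 10 genes, 3 to 5 were called in replicate 1 and 8 to 12 of the further pathway genes, while the share of all tested genes called ran from 13.5% to 29.7% over the same settings. With replicate 1 left out, edgeR called 0 of the 10 in replicates 2, 3 and 4 (0, 1 and 1 at an unadjusted p under 0.05), against 82 of 14306 genes (0.573%) in replicate 2 and 0 in replicates 3 and 4. The alternatives for the further pathway genes, the rescaled detection count, the order and the leave-one-out isoforms were chosen after seeing the data. No paired analysis was possible because there is 1 group. Alox5 and Hpgd had at most 61 counts in a library, which limits their folds and isoform shares.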

Other observations

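For 6 of the 7 stromal markers replicate 3 held the most counts; the exception was Pdgfrb, with 0, 7, 2 and 2 counts in replicates 1 to 4. Col1a1, a fibrillar collagen, had 111 counts in replicate 3 and 5, 12 and 3 in replicates 1, 2 and 4. Dcn, which encodes decorin, had 81 counts there and 0 elsewhere, and Pdgfra, a platelet-derived growth factor receptor, had 64 and 0. The prostaglandin transporter gene Slco2a1 had 11 counts in replicate 3 and 0 elsewhere. The 7 stromal markers summed to 1.66 TPM in replicate 3 and to 0.04 to 0.14 in the others.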
